A study of Mus musculus with 2 samples.

Results

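The receptors described here are 10 G protein-coupled receptor genes through which the gut senses fats, amino acids, calcium, bile acids and microbial metabolites: Ffar1, Ffar2, Ffar3, Ffar4, Gpr119, Gpbar1, Casr, Gpr35, Lpar5 and Tas1r3. They were chosen by symbol, and all 10 were found among the 43346 Ensembl genes of the tables. Poly(A)-selected RNA of small intestine came from C57BL/6J mice of both sexes at 8 weeks of age, without a stated treatment, and was sequenced as 2 libraries. The labels call these biological replicates 1 and 2 of separate biosamples, describe pooled male and female littermates, and name no part of the intestine. No second group exists, so no test between groups was made, and values are given for each library, with mean and SD over the pair where stated (n = 2). Those SDs measure only the spread between these samples.

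Many nutrient receptors of this kind sit on rare cells of the epithelium, but which cells held the RNA of each receptor here was not determined. Enteroendocrine cells use them to couple food in the lumen to the release of hormones such as glucagon-like peptides, cholecystokinin and peptide YY, and several of the same receptors are also carried by leukocytes, adipocytes, pancreatic islet cells or neurons. The receptors signal through G proteins: the Gs class raises cyclic AMP, the Gq class releases calcium through phospholipase C, and the Gi class lowers cyclic AMP. In whole tissue, fewer cells of a type and less RNA per cell cannot be told apart.

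Some of the annotated start sites of Lpar5, Gpr35, Ffar2 and Ffar3 are shown here. Lpar5 and Gpr35 were chosen because they hold most of the receptor RNA. Ffar2 was chosen because its transcripts differed in share between the libraries, and Ffar3 for one of the wider differences in level. Not printed are the RefSeq starts at 125071335 (Lpar5), 92978903 (Gpr35) and 30821139 (Ffar2). The Ffar2 window before 30821139 holds a CCAAT box 37 bases and a GC box 197 bases before the start. The Lpar5 window before 125071335 holds CCAAT boxes 155 and 62 bases, a GC box 136 bases and a GATA sequence 7 bases before it. The Gpr35 window before 92978903 holds no match. Gpr35-202, Gpr35-204 and Gpr35-206 start at none of the sites shown. Each sequence is the 250 bases before a RefSeq start site (GRCm38.p6), and capitals mark matches to a motif searched below; a sequence without capitals has none.
Lpar5, chr6:125067670-125067919, plus strand: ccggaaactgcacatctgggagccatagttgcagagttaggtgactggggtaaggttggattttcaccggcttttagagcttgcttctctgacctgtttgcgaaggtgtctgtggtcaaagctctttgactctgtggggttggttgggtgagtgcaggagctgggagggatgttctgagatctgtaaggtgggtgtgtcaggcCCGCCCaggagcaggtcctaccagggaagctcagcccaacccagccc
Gpr35, chr1:92972869-92973118, plus strand: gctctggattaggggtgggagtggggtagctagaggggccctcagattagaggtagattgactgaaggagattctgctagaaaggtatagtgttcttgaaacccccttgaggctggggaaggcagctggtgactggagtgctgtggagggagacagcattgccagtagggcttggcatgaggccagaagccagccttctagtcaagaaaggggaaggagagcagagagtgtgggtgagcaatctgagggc
Ffar2, chr7:30823776-30824025, minus strand: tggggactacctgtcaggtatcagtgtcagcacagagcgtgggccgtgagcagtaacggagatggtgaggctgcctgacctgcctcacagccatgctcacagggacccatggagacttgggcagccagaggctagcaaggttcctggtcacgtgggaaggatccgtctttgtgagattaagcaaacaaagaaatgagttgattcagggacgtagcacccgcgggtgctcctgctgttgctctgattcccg
Ffar2, chr7:30821649-30821898, minus strand: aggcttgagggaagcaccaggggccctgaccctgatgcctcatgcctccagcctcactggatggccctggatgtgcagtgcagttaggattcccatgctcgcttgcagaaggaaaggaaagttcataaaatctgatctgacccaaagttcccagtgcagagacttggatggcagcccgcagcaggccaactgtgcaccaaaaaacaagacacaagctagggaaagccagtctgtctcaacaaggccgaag
Ffar2, chr7:30821193-30821442, minus strand: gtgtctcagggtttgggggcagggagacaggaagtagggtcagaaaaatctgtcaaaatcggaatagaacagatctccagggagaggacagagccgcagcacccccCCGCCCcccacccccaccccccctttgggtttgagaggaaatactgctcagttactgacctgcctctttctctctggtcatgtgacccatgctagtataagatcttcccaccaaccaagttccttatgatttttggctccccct
Ffar3, chr7:30856179-30856428, minus strand: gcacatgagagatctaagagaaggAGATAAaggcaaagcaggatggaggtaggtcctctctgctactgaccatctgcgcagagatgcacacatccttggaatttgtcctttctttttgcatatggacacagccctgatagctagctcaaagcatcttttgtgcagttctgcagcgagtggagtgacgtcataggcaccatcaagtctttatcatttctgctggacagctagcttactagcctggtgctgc

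The libraries held 45472946 expected counts (estimated fragments) in replicate 1 and 45822403 in replicate 2, of which the 10 receptors took 7665 and 10127. A gene without counts could still hold up to 6.60e-06% of replicate 1 or 6.55e-06% of replicate 2 (3 counts of the total). This limit and the exact binomial intervals below cover counting error only. The deposited credibility intervals can also be wide where reads are divided between transcript models, as for Gpr35 below. No interval covers the spread between libraries. The libraries differed in tissue content. Genes of the exocrine pancreas, islet and stomach lists took 29.2% of TPM (an RNA level scaled for transcript length and library total) in replicate 1 and 0.185% in replicate 2. Among 12260 genes whose mean reached 1 TPM, the median log2 difference was 0.66 in favour of replicate 2, and 87.8% had the higher TPM there. The part of this difference in the receptor values was not tested. Enterocyte markers were present in both libraries, with all 8 of the list at or above 1 TPM and sums of 6633 and 10168 TPM, but their levels differed between them. In replicate 2, 4 of the 8 lay 2-fold or more above the median gene (5.03% of all genes did) and 1, the alkaline phosphatase gene Alpi (3759 and 1663 TPM), as far below it (6.32% did). The median of the 8 against the median gene was 1.13 on the log2 scale, and its part in the receptor values was not tested.

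The receptor levels added up to 135 TPM (replicate 1) and 227 TPM (replicate 2), a mean of 181 ± 65.0 TPM (SD, n = 2), and Lpar5 alone made up 78.4% and 79.7% of that sum. At a threshold of 1 TPM in both libraries, 6 of the 10 were detected: Lpar5, Gpr35, Ffar2, Ffar4, Ffar1 and Gpbar1. Of all 21474 protein-coding genes, 49.3% passed this threshold, and of 67 other genes with the symbol Gpr and a number, 29.9% did. Those 67 were picked by name alone, whether or not each is an established receptor. Ffar3 and Tas1r3 reached 1 TPM in replicate 2 only, and Gpr119 and Casr in neither library.

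**Figure D1:**
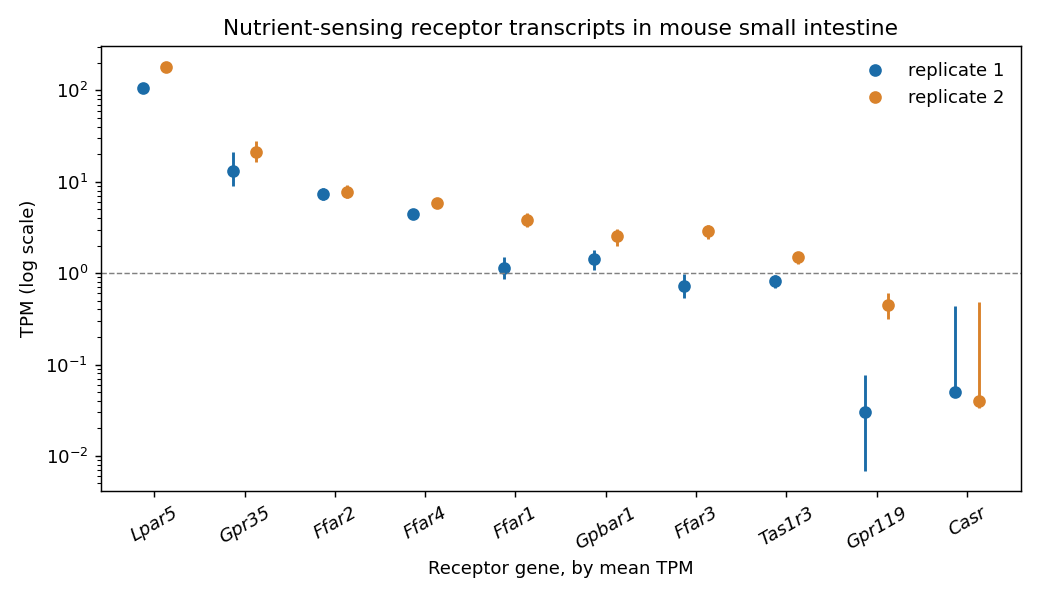
TPM (log axis) of the 10 receptor genes in replicate 1 (blue) and replicate 2 (orange), ordered by mean, with the deposited credibility interval as a vertical line and 1 TPM dashed. Lpar5 stands above 100 TPM in both libraries, while Gpr119 and Casr lie under 0.5 TPM.

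Lpar5, a receptor for lysophosphatidic acid that has also been linked to the sensing of protein digests, was the most abundant of the 10 (ENSMUSG00000067714.9, chromosome 6, 125067920 to 125082472, plus strand, GRCm38). It held 5817 and 7760 counts, or 106 TPM in replicate 1 (credibility interval 102 to 108) and 181 TPM in replicate 2 (175 to 184), with a mean of 144 ± 53.1 TPM (SD, n = 2). Of all protein-coding genes, 96.6% had a lower mean. None of the 67 other Gpr genes exceeded it, but that set leaves out receptors with other symbols. The highest of them, chosen after their values were seen, was Gpr137 at 45.3 and 59.1 TPM, followed by Gpr108 at 19.3 and 36.5 TPM and Gpr39 at 8.50 and 37.2 TPM.

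Lpar5 also led the lysophosphatidic acid receptors, which answer to a lipid made from other phospholipids outside cells. Lpar1 came next at 25.8 and 38.5 TPM. Lpar3 was at 2.03 and 10.35 TPM and Lpar2 at 1.63 and 1.82 TPM. Lpar6 stayed at 0.27 and 0.74 TPM, and Lpar4 was nearly absent at 0.03 and 0.01 TPM (6 and 2 counts). The order Lpar5, Lpar1 held in both libraries without overlap of their values.

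All Lpar5 TPM was assigned to transcripts from 2 start sites. Lpar5-201, which begins at the site whose upstream sequence is printed, took 86.8% and 85.3% of the gene's TPM (92.1 and 155 TPM). Lpar5-202, a shorter model of 794 nt that begins at 125071277, inside the gene, took 13.2% and 14.7%. Lpar5-203, which shares that inner start, was listed at 0. The split between the models was therefore close to equal in the libraries, unlike that of Ffar2 and Gpr35.

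Gpr35, a receptor for which kynurenic acid and a lysophosphatidic acid have been proposed as ligands, ranked next (ENSMUSG00000026271.11, chromosome 1, 92950865 to 92986391, plus strand). Its 951 and 1172 counts gave 13.2 TPM (interval 9.08 to 21.3) and 21.2 TPM (16.7 to 28.0), with overlapping intervals. Most of that width lies in 1 short model, Gpr35-204, whose own intervals were 1.74 to 13.6 TPM and 4.37 to 15.4 TPM. It is 246 nt long and has an effective length (length corrected for fragment length) of 13.5 and 28.95 nt. From 4 and 10 counts it was given 5.83 and 8.77 TPM, or 44.2% and 41.4% of the gene. Counting only transcripts with an effective length of at least 100 nt in both libraries, a limit chosen after the values were seen, left Gpr35 at 7.35 and 12.4 TPM (9.88 ± 3.59, SD, n = 2). That is level with Ffar2 in replicate 1 and above it in replicate 2.

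Among the longer Gpr35 models, Gpr35-205 led by TPM in both libraries, by a small margin in replicate 1 and a wide one in replicate 2. This model, which starts 3 nt from the printed RefSeq site, was at 3.14 TPM (interval 2.36 to 3.91) in replicate 1 and 8.97 TPM (7.71 to 9.92) in replicate 2, with intervals apart. Gpr35-202, which starts at 92975347, was at 2.99 TPM (2.24 to 3.53) and 2.01 TPM (1.23 to 2.76), with overlapping intervals. These models share exons, so the quantifier divided reads between them, and the difference between single libraries has no replicate check.

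The receptors for long-chain fatty acids are Ffar4, found on enteroendocrine cells, macrophages and adipocytes, and Ffar1, known for its action on insulin secretion in islet beta cells and on gut hormone release. Ffar4 (ENSMUSG00000054200.6, chromosome 19, 38097071 to 38114263, plus strand) held 263 and 273 counts, or 4.47 TPM (interval 3.91 to 4.98) and 5.90 TPM (5.17 to 6.56). The intervals were apart by a small margin, and its share of counts was 1.03 times as high in replicate 2 (95% exact binomial interval 0.866 to 1.22). Ffar1 (ENSMUSG00000044453.4, chromosome 7, 30857390 to 30861564, minus strand) held 50 and 133 counts, or 1.15 TPM (0.86 to 1.49) and 3.86 TPM (3.21 to 4.51). Its level was 3.36 times as high in replicate 2, and its share of counts 2.64 times as high (95% exact binomial interval 1.89 to 3.73). The median gene's share of counts was 1.36 times as high there.

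The receptors for the short-chain fatty acids acetate, propionate and butyrate, products of bacterial fermentation, are Ffar2 and Ffar3. Ffar2 (ENSMUSG00000051314.7, chromosome 7, 30818348 to 30823775, minus strand), which leukocytes also carry, was the more abundant, with 326 and 332 counts and 7.35 TPM (interval 6.27 to 8.63) and 7.74 TPM (6.56 to 9.12). The intervals overlapped. Ffar3 (ENSMUSG00000019429.7, chromosome 7, 30854330 to 30856178, minus strand), which is also found in peripheral neurons, held 45 and 136 counts, or 0.73 TPM (0.54 to 0.98) and 2.87 TPM (2.36 to 3.38). Its TPM was 3.93 times as high in replicate 2, and its share of counts 3.0 times as high (2.13 to 4.30).

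Ffar1 and Ffar3 are neighbours on the same strand, with 1211 bases between them in GENCODE M21, and Ffar2 lies 30554 bases further on. The M21 model of Ffar1 spans 4175 nt, whereas the table's model is 1092 nt long, so the distance depends on the annotation. The next gene upstream on that strand is Cd22, a B cell gene named here after its values were seen, at 3.67 and 7.53 TPM. Reads that run from one gene into the next were not examined.

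The total of Ffar2 was close between the libraries, but its transcripts were not. Ffar2-205, a 641 nt model that starts at 30821138, was at 4.66 TPM (interval 3.15 to 5.91) in replicate 1 and 1.63 TPM (0.27 to 3.10) in replicate 2. Ffar2-203, which starts at 30821648, had the opposite order, at 0.73 TPM (0.024 to 1.52) and 3.56 TPM (2.33 to 4.41). For both models the intervals were apart between the libraries. Ffar2-201, from the outer start at 30823775, was steady at 1.82 and 1.86 TPM, or 24.8% and 24.1% of the gene. The models share their coding exon, and the counts behind this difference were small: 96.2 and 27.2 for Ffar2-205, and 36.3 and 139 for Ffar2-203. Ffar3 split about evenly between Ffar3-201 (55.5% and 48.0%) and Ffar3-202 (44.5% and 52.0%), which start within 11 nt of each other.

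**Figure D2:**
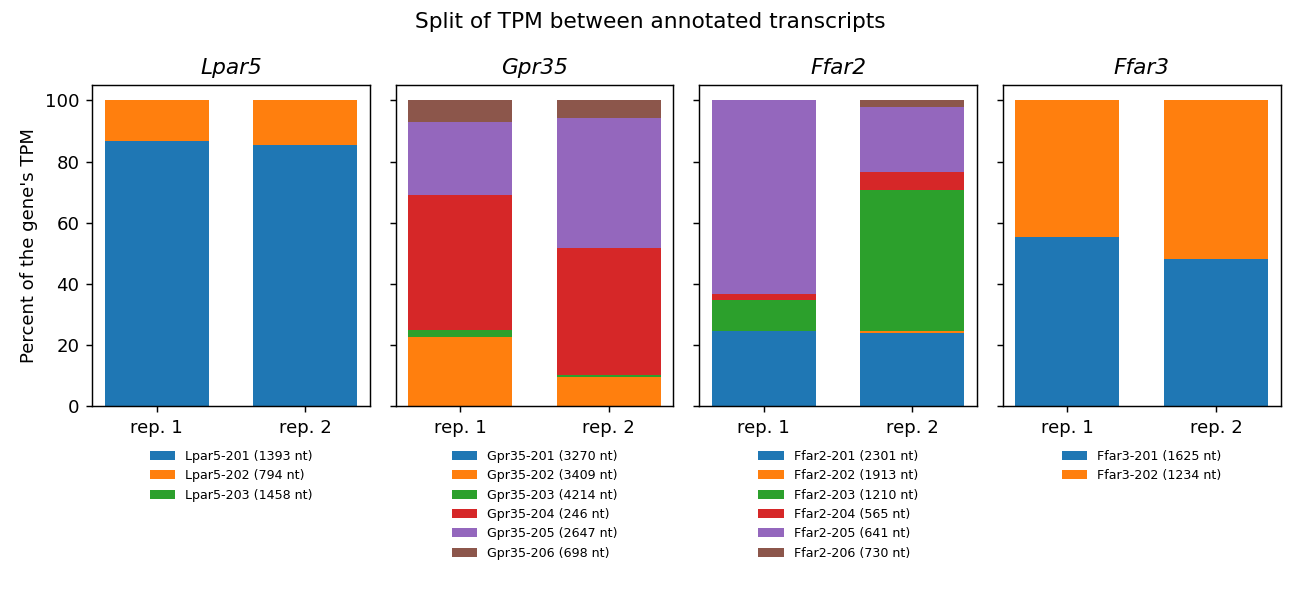
Percent of each gene's TPM that the deposited tables assign to each annotated transcript, for 4 receptor genes in replicates 1 and 2, with transcript length in the legend. Lpar5 keeps its split, Ffar2 is led by Ffar2-205 in replicate 1 (63.4%) and by Ffar2-203 in replicate 2 (46.0%), and the 246 nt model Gpr35-204 holds over 40% of Gpr35 in both.

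Gpr119, a Gs-coupled receptor for oleoylethanolamide and monoacylglycerols that promotes release of glucagon-like peptide, was close to the limit of detection (ENSMUSG00000051209.3, chromosome X, 48667979 to 48674478, minus strand). It had 3 counts in replicate 1 and 36 in replicate 2, or 0.03 TPM (interval 0.0069 to 0.076) and 0.45 TPM (0.31 to 0.60). Its share of counts was 11.9 times as high in replicate 2, with a 95% exact binomial interval of 3.76 to 60.4. That was the widest gap among the 10 receptors, but it rests on few fragments.

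Gpbar1, the cell-surface bile acid receptor, is a single-exon gene (ENSMUSG00000064272.3, chromosome 1, 74278550 to 74279624, plus strand). With 61 and 85 counts it stood at 1.43 TPM (interval 1.09 to 1.81) and 2.52 TPM (2.00 to 3.06). Its share of counts was 1.38 times as high in replicate 2 (0.984 to 1.95), close to the median gene. The nuclear bile acid receptor Nr1h4 was higher, at 6.56 and 8.35 TPM.

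The members of the class C receptor family, which bind ligand in a large outer domain, were both low. Tas1r3, the subunit that sweet and umami taste receptors share (ENSMUSG00000029072.3, chromosome 4, 155859268 to 155863362, minus strand), held 137 and 194 counts, or 0.82 TPM (interval 0.68 to 0.95) and 1.49 TPM (1.27 to 1.68). Its annotated span shares 36 bases, of a transcript of 3523 nt, with Dvl1 on the opposite strand, and Dvl1 was at 89.8 and 125 TPM. The libraries are stranded per the labels, but whether the counting used strand is not given in the sources used here, so the origin of reads that touch those 36 bases, a stretch shorter than the 76 nt reads, cannot be told apart. Its partners were lower still: Tas1r2, the sweet subunit, was at 0.08 and 0.33 TPM (12 and 34 counts), and Tas1r1, the umami subunit, at 0.04 and 0.01 TPM (6 and 1 counts).

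Casr, the calcium-sensing receptor, which also responds to aromatic amino acids (ENSMUSG00000051980.9, chromosome 16, 36493696 to 36562141, minus strand), had 12 and 6 counts, or 0.05 TPM (interval 0.044 to 0.43) and 0.04 TPM (0.033 to 0.48). The deposited posterior mean was higher, at 0.19 and 0.20 TPM. Casr had the lowest mean TPM of the receptors, although Gpr119 was lower in replicate 1, and by TPM, but not by posterior mean, it was the only 1 of the 10 that was not higher in replicate 2. Its counts were placed on Casr-201 in replicate 1 and on Casr-203 in replicate 2, a split that so few fragments do not resolve. Gprc6a, a related receptor for basic amino acids, had no counts in either library.

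By mean TPM the order was Lpar5, Gpr35, Ffar2, Ffar4, Ffar1, Gpbar1, Ffar3, Tas1r3, Gpr119 and Casr. Of the 9 neighbouring pairs, 5 had the same order in both libraries and no overlap of their values: Lpar5 over Gpr35, Gpr35 over Ffar2, Ffar2 over Ffar4, Ffar4 over Ffar1, and Tas1r3 over Gpr119. The other 4 pairs, which rank Ffar1, Gpbar1, Ffar3 and Tas1r3 among themselves and Gpr119 against Casr, overlapped, so their order is within the spread between libraries. Without the short Gpr35 model the pair of Gpr35 and Ffar2 was tied in replicate 1. The credibility intervals of Ffar2 and Ffar4 overlapped by a narrow margin in replicate 2.

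Differences between the libraries were set against the median gene as log2 ratios of TPM + 1, replicate 2 over replicate 1, minus 0.66. Gpr119 and Casr were below the filter, a mean of 1 TPM. The median of the 8 receptors that passed was -0.07, beside 0 for all genes by construction. None of the 8 lay 2-fold or more from the median gene, beside 11.4% of the 12260 genes. With so few receptors the count cannot be set apart from that share. Ffar1 (0.51) and Ffar3 (0.50) lay highest, Ffar2 (-0.60) and Ffar4 (-0.33) lowest. Lpar5 (0.10), Gpr35 (-0.02), Gpbar1 (-0.13) and Tas1r3 (-0.21) were between them. The pseudocount of 1 shrinks ratios of genes near 1 TPM. With counts scaled by TMM in edgeR, which needs no length, Ffar3 passed the 2-fold limit at 1.15 and Ffar1 stayed under it at 0.96, where 14.1% of genes passed in either direction and 6.2% in this direction. Intervals were apart between the libraries for 6 of the 8, beside 79.9% of all genes, and for 5 of the 6 with a mean of 1 to 10 TPM, beside 69.3% of genes in that range.

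**Figure D3:**
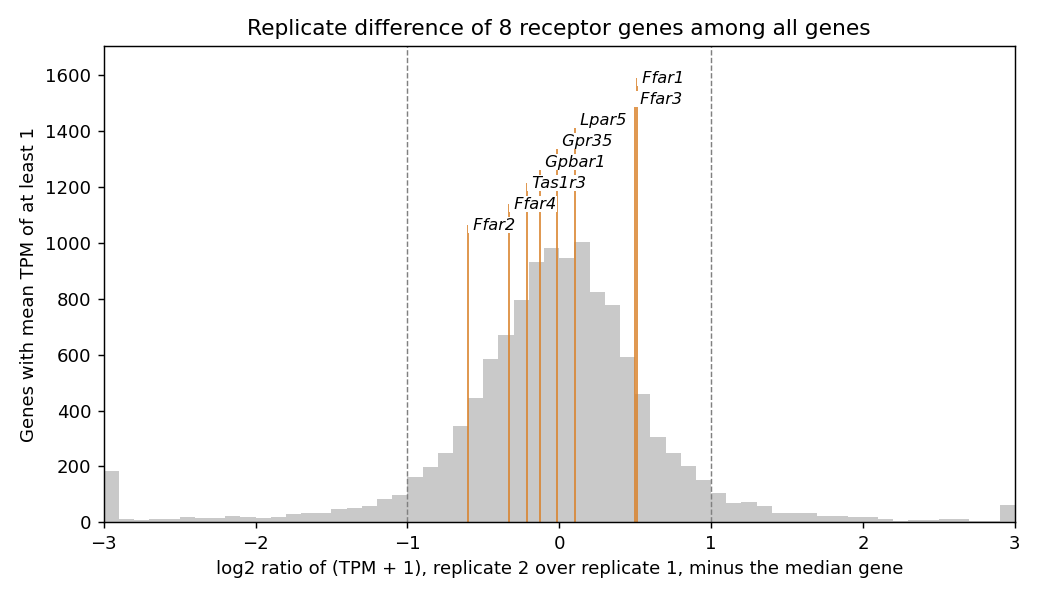
Histogram of the log2 ratio of TPM + 1 between replicates, minus the median gene, for the 12260 genes that passed the filter; the outermost bars also hold genes beyond the axis, orange lines mark 8 receptors and dashed lines 2-fold. All 8 receptors lie between the dashed lines, with Ffar1 and Ffar3 together at the upper side and Ffar2 at the lower.

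Gut hormone genes also differed between the libraries. So did the stomach list (19753 and 51.5 TPM in replicates 1 and 2) and the islet list (101 and 2.75 TPM). The part of stomach and islet RNA in the hormone values was not tested. Those 2-fold or more above the median gene in replicate 2 were Gcg, the precursor of glucagon-like peptides, at 2.44 and 15.6 TPM, Pyy, peptide YY, at 110 and 488 TPM, and Nts, neurotensin, at 0.19 and 7.15 TPM. As far below it were Tph1, a serotonin-making enzyme (2.19 and 1.39 TPM), and 3 hormone genes: Gast, gastrin, was at 269 and 0.31 TPM, Ghrl, ghrelin, at 37.8 and 10.7 TPM, and Cck, cholecystokinin, at 201 and 138 TPM. These are 3 and 4 of the 11 hormone-list genes that passed the filter, beside 5.03% of all genes above and 6.32% below. Sct, secretin, was at 259 and 570 TPM, Sst, somatostatin, at 142 and 244 TPM, and Gip at 20.4 and 36.4 TPM. Tac1, which encodes substance P, had 1.48 and 3.08 TPM. Insl5, a hormone of the colon, had no counts.

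Markers of cells that carry these receptors moved as follows. The 8 enteroendocrine markers summed to 36.8 and 72.9 TPM, led by Chga at 19.5 and 46.8 TPM. Of the 7 with mean TPM of at least 1, none lay 2-fold from the median gene, beside 11.4% of all genes. So few genes cannot set the list apart from that share. The 6 islet markers together reached 101 TPM (replicate 1) and 2.75 TPM (replicate 2), with Ins2 at 76.7 and 0.51 TPM, Ins1 at 13.1 and 0.03 TPM and Ppy at 9.18 and 0 TPM. The islet genes Iapp (1.66 and 1.47 TPM), Mafa (0.79 and 0.74 TPM) and G6pc2 (0.04 and 0 TPM) were low in both.

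Markers of other cell types were present as well. The 9 myeloid markers summed to 55.2 and 63.4 TPM, with Cd68 at 16.7 and 20.2 TPM, Csf1r at 13.9 and 17.2 TPM and Cd14 at 7.09 and 5.74 TPM. The 7 that passed the filter had a median of -0.60 against the median gene. The macrophage gene Adgre1 (3.28 and 1.96 TPM, named after its values were seen) was the 1 of them 2-fold or more below it. Of all genes, 6.32% were. The neutrophil genes S100a8 and S100a9 (named after their values were seen) were at 0 TPM in replicate 2 and at most 0.36 TPM in replicate 1. The 5 adipocyte markers summed to 69.0 and 32.7 TPM, mostly Cfd (62.6 and 28.7 TPM), with Plin1 at 3.20 and 0.93 TPM, Adipoq at 2.01 and 0.83 TPM and Fabp4 at 1.13 and 2.25 TPM. Of the 4 that passed the filter, 3 lay 2-fold or more below the median gene, beside 6.32% of all genes. The 5 enteric neuron markers summed to 14.9 and 22.4 TPM, with Uchl1 at 8.07 and 10.47 TPM. Lymphocyte markers summed to 8841 and 21893 TPM, nearly all from the antibody gene Igha at 8008 and 20453 TPM. The part of these cells in the receptor differences was not tested.

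The taste-type signalling chain was present in part. Trpm5, the cation channel of taste and tuft cells, was at 9.48 and 10.6 TPM and the phospholipase gene Plcb2 at 2.35 and 5.13 TPM. Gnat3, the gustducin alpha subunit, had 0 and 2 counts (0 and 0.05 TPM), and its gamma partner Gng13 4 and 5 counts (0.16 and 0.25 TPM). With Trpm5, the 8 tuft cell genes came to 63.6 and 57.1 TPM. Of the others, Ptgs1 was at 23.3 and 26.7 TPM, Alox5ap at 22.6 and 13.2 TPM, Avil at 5.54 and 1.95 TPM, Gfi1b at 1.04 and 1.46 TPM, Dclk1 at 0.76 and 1.26 TPM, Il25 at 0.43 and 0.87 TPM and Pou2f3 at 0.42 and 0.97 TPM. The 6 tuft genes with mean TPM of at least 1 had a median of -0.49 against the median gene. Among them 2, Alox5ap and Avil, lay 2-fold or more below it in replicate 2, beside 6.32% of all genes.

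Some general transducers were far more abundant than most of the receptors, while others were at levels like theirs. Among the latter, named after their values were seen, were Gnaq (5.08 and 13.2 TPM), Gnai3 (4.36 and 12.1 TPM) and Gnai1 (1.62 and 1.55 TPM). In the list of 26 signalling genes, 21 had at least 1 TPM in both libraries, beside 49.3% of protein-coding genes. The beta subunit Gnb1 was at 553 and 1309 TPM, the Gq-class subunit Gna11 at 255 and 678 TPM, the Gs subunit Gnas at 237 and 436 TPM, and the Gi subunit Gnai2 at 209 and 399 TPM. Of the 22 with mean TPM of at least 1, none lay 2-fold above the median gene, beside 5.03% of all genes. As far below it lay 1, Gna15 (2.44 and 1.27 TPM, named after its values were seen), beside 6.32% of all genes.

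**Figure D4:**
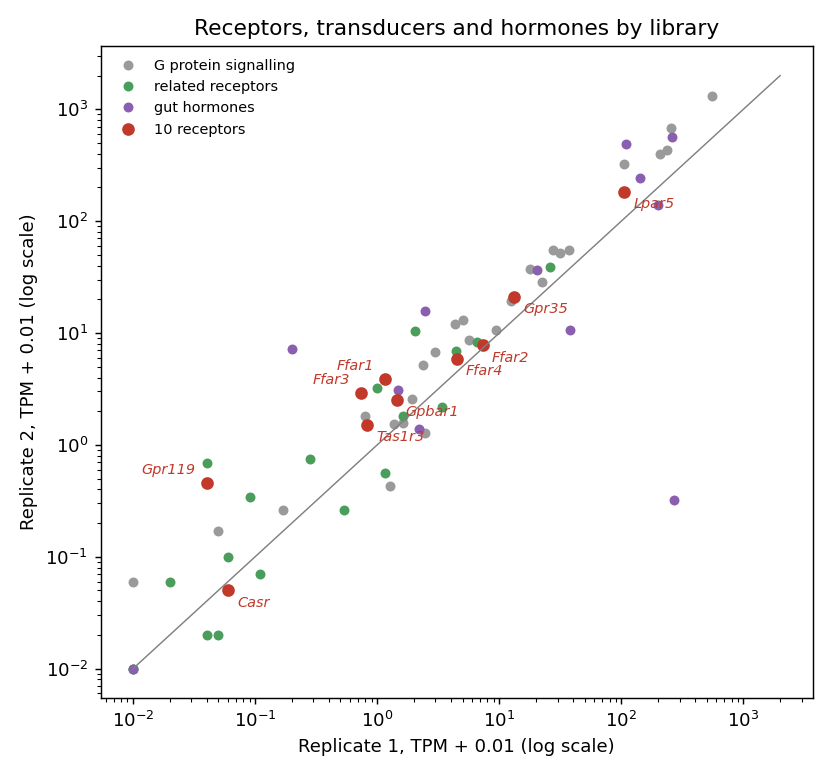
TPM + 0.01 in replicate 1 against replicate 2 (log axes) for the 10 receptors (red), related receptors (green), G protein signalling genes (grey) and gut hormones (purple), with the line of equal values. Lpar5 lies among the more abundant hormones and transducers, the other receptors lie lower, among the less abundant ones, and gastrin is far below the line at 269 and 0.31 TPM.

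Related receptors outside the set were mostly low. Of 19, 6 had at least 1 TPM in both libraries, beside 49.3% of protein-coding genes, and 2 (Gprc6a and Oxgr1) had no counts. The lactate receptor Hcar1 was at 0.99 and 3.20 TPM, its niacin-binding relative Hcar2 at 0.52 and 0.25 TPM, and the succinate receptor Sucnr1 at 0.03 and 0.68 TPM (2 and 36 counts). Gpr132 was at 4.41 and 6.84 TPM and Gpr55 at 3.36 and 2.18 TPM. The cannabinoid receptor Cnr1 was at 1.15 and 0.55 TPM, although its counts were higher in replicate 2 (86 and 121), and the cause was not tested. Gpr84, a receptor for medium-chain fatty acids, was at 0.10 and 0.06 TPM, Gpr142 at 0.05 and 0.09 TPM and Gpr174 at 0.01 and 0.05 TPM. Of the 7 with mean TPM of at least 1, Lpar3 lay 2-fold or more above the median gene and Gpr55 as far below it. Of all genes, 5.03% lay above and 6.32% below.

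For each receptor detected in both libraries, the gene of 150 others on the lists with the nearest levels was taken, by distance in log2(TPM + 1) over the 2 libraries. These were Sst for Lpar5 (distance 0.59), the arrestin gene Arrb2 for Gpr35 (0.14; 12.6 and 19.3 TPM), Nr1h4 for Ffar2 (0.17), Gpr132 for Ffar4 (0.18), Hcar1 for Ffar1 (0.24) and the neuronal receptor gene Ret for Gpbar1 (0.043; 1.5 and 2.49 TPM). With 2 libraries the measure reflects level and a single ratio only.

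Motifs were searched in 15 windows of 250 bases before the RefSeq start sites of the 10 receptors, on both strands. The TATA box (TATAAA) was in none of them, and in 12.4% of all 32851 windows. The GC box (GGGCGG) was in 5 windows of 3 receptors (32.7% of all), among them the main Lpar5 start, 47 bases before it. The CCAAT box was in 2 (33.8% of all) and the GATA sequence AGATAA in 2 (9.99% of all), of which 1 is in the printed Ffar3 window, 226 bases before the start. The CDX sequence CAATAAA (4.20% of all) and the HNF4 sequence CAAAGTCC (1.20% of all) were in none. Some windows of Ffar2 overlap each other and share a GC box. No match says only that these letters are not in these windows.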

How the data were processed

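Gene tables and the matching transcript tables, 1 pair per library, were used as deposited. The deposited expected counts are estimated fragments per feature, and the authors' TPM and FPKM values scale them by effective length and by the sum over the library. The transcript tables as deposited also hold the percent of a gene's TPM from each transcript, and both kinds of table give posterior mean TPM and bounds of a credibility interval whose level is not stated in the file. Per the deposited text, the assembly is mm10 and the annotation M4; the aligner and the quantifying program are not given in any source used here.

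Symbols and coordinates came from GENCODE M21 (GRCm38) by stable identifier, which matched 42462 of 43346 genes; the table models of Ffar1 and Ffar4 differ in length from M21. Promoter windows came from RefSeq (GRCm38.p6). Protein sequences were not used here. The replicate ratio was log2 of TPM plus a pseudocount of 1, minus the median of genes with mean TPM of at least 1, with a 2-fold limit. TMM factors came from edgeR 4.0.16 and size factors from DESeq2 1.42.0 on expected counts rounded to whole numbers (R 4.3.3); other steps used Python 3.11.15. Ratios of count shares have exact 95% binomial intervals. Scaling and ratios were tested on simulated data. The simulated counts did not model the difference in pancreas, islet and stomach RNA between these libraries. Alternatives were FPKM, posterior mean TPM, other scalings, pseudocounts and minimums, and leaving out each library.

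The members and lists were chosen with earlier results of these data known. Named genes are the 10 receptors; from each list the 4 highest members and those without counts, in so far as they bear on the receptors; all related receptors, hormones, islet and tuft genes; Gnat3, Gng13, Plcb2 and Trpm5; genes that overlap a receptor; and the nearest gene in level. Others are said to be named after their values were seen.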

Additional observations from a re-analysis of the deposited data

How the results depend on the processing

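The number of receptors at 1 TPM in both libraries was 6, and it was 8 at a minimum of 0.5 TPM, 3 at 5 TPM, 8 with TPM rescaled without the pancreas, islet and stomach lists, and 6 to 8 with 1 library left out. The summed level of 181 TPM ranged from 135 to 227 with 1 library left out. No receptor lay 2-fold from the median gene; the number was 1 with a pseudocount of 0.1 (Ffar3), 1 with TMM-scaled counts (Ffar3), 1 with DESeq2 size factors (Ffar3), 2 without centring (Ffar1 and Ffar3) and 2 without a filter on mean TPM, where the median over all genes is 0 (the same 2). Gpr119, under the filter, stood at -0.17 with the pseudocount of 1, 1.30 with 0.1 and 2.83 with TMM-scaled counts. It stood at 2.85 with DESeq2 size factors, -0.14 with posterior mean TPM and -0.28 with a minimum mean of 5 TPM. The negative values all used the pseudocount of 1, which exceeds its 0.03 and 0.45 TPM and so shrinks the ratio. Its share of counts was 11.9 times as high in replicate 2 (exact binomial interval 3.76 to 60.4), beside 1.36 for the median gene. By counts Gpr119 therefore lay above the median gene, although this rests on 3 and 36 counts. Lpar5 stood at 0.10, 0.77 without centring and -0.02 with TMM-scaled counts. For single receptors, 104 of 130 alternative values moved by less than the spread or counting interval and 26 by more; the cause was not tested. No paired analysis was possible because the libraries form 1 group. With 2 libraries no test between groups was possible, and the counts of Gpr119 and Casr limit both.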

Other observations

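Genes that make or remove ligands of these receptors were held at different levels. Kyat1, an enzyme that makes kynurenic acid, was at 11.9 TPM (replicate 1) and 63.3 TPM (replicate 2), and Ido1, which starts tryptophan breakdown along that route, at 2.87 and 12.5 TPM; 2 of the 7 genes of the list with mean TPM of at least 1 lay 2-fold or more above the median gene, as 5.03% of all genes did, and these are the 2. Aadat, another kynurenic acid enzyme, had no counts. The lipid phosphatase genes that remove lysophosphatidic acid were well represented, with Plpp2 at 160 and 320 TPM, Plpp1 at 26.0 and 77.7 TPM and Plpp3 at 23.9 and 39.7 TPM, while Enpp2, which makes that lipid, was at 0.75 and 0.86 TPM. Faah, which breaks down oleoylethanolamide, was at 46.7 and 74.1 TPM, and Napepld, which makes it, at 1.04 and 0.70 TPM. Some of these were named after their values were seen.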
